A study of Mus musculus with 2 samples.

Results

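A set of 10 genes of mast cells and granulocytes, chosen by symbol among the 43346 Ensembl genes measured, was followed in the intestine of newborn mice. They comprise 4 proteases of connective-tissue mast cells (Tpsb2, Cma1, Cpa3 and Mcpt4), 2 proteases of mucosal mast cells (Mcpt1 and Mcpt2), 2 chains of the high-affinity IgE receptor (Fcer1a and Ms4a2) and the neutrophil pair S100a8 and S100a9. RNA longer than 200 nt was sequenced from 2 littermates of the B6NCrl strain at age 0 day, sex not collected, with 1 intestine, 10 ng of RNA and spike-in transcripts per library. No genotype change or treatment is named in the labels, and the libraries, called pup 1 and pup 2, form 1 group with no other tissue, age or condition. Depth was 44568098 expected counts on genes for pup 1 and 34797495 for pup 2. All 4 intestinal epithelial genes checked (Epcam, Cdh1, Vil1 and Fabp2) reached 1 TPM in each pup, and summed to 13954 and 13088 TPM. TPM is the deposited abundance per length, scaled to the same total in each library.

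Mast cells store proteases in granules bound to the proteoglycan serglycin, and release them when antigen crosslinks IgE held by the high-affinity receptor. In the mouse, mast cells of connective tissue and of the gut's outer layers carry tryptase, carboxypeptidase A3 and the chymases encoded by Cma1 and Mcpt4. Mucosal mast cells, which expand within the gut epithelium during worm infection, carry the proteases encoded by Mcpt1 and Mcpt2. S100a8 and S100a9 encode the calcium-binding chains of calprotectin, which fills the cytoplasm of neutrophils and is also made by monocytes and stressed stratified epithelium.

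Mcpt4, Mcpt1 and Mcpt2 are close copies and Cma1 is a more distant one, and their coding sequences show bases that tell them apart. The stretches here are from GENCODE M21 on GRCm38, 5′ to 3′ on the coding strand, each within the last exon (exon 5 of 5) around the codon of the active-site serine, at bases 7 to 9. Capitals mark bases that differ from Mcpt4 at the same position. Mcpt4 (chr14:56060047-56060100, minus strand), Mcpt1 (chr14:56019996-56020049, plus strand), Mcpt2 (chr14:56044292-56044345, plus strand) and Cma1 (chr14:55941744-55941797, minus strand) read:
Mcpt4: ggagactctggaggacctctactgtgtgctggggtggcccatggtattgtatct
Mcpt1: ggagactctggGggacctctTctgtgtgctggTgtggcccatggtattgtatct
Mcpt2: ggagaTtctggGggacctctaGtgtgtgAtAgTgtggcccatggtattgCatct
Cma1: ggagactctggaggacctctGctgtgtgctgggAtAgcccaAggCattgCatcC
Within these 54 bases, Mcpt1 differed from Mcpt4 at 3 positions, Mcpt2 at 7 and Cma1 at 7. Over the aligned coding sequences Mcpt4 was 86.7% identical to Mcpt1, 79.3% to Mcpt2 and 63.6% to Cma1, so the connective-tissue chymase Mcpt4 was closer in sequence to both mucosal genes than to Cma1. Of the 10 genes, 8 had no window of 100 bases in common with another gene's transcript. The exceptions were 1 of 1009 windows of Mcpt4, found also in Cma2, and 13 of 5166 windows of Ms4a2, found also in Ms4a4b. All 10 genes had whole-number counts in both pups, and no fraction of a read was assigned to any of them.

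The promoters of Mcpt4 and Mcpt1 were also alike. The windows here, from RefSeq on GRCm38.p6, run from 250 bases before to 50 bases after the gene's start, at chr14:56062261-56062560 on the minus strand for Mcpt4 and chr14:56017714-56018013 on the plus strand for Mcpt1. They are shown because these genes carry the labels of different mast cell types and differed in level here. Capitals mark bases that mismatch or have no partner in the alignment of the pair:
Mcpt4: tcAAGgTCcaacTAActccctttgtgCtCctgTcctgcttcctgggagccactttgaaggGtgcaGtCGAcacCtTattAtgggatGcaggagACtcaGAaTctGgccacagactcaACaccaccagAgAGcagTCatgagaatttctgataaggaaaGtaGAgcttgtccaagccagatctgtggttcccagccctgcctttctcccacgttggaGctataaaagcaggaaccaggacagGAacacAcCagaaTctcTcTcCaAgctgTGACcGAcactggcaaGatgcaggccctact
Mcpt1: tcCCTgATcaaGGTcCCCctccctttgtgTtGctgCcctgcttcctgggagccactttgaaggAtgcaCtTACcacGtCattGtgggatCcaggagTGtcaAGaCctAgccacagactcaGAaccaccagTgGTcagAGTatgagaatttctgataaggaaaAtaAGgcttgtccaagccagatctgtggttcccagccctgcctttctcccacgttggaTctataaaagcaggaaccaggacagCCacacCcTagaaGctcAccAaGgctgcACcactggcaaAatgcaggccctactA
The alignment held 247 identical bases of 305 (81.0%), against 48.2% for Cma1 with Mcpt4, 50.8% for Cma1 with Mcpt1 and 46.7% for S100a8 with S100a9. The windows were searched on both strands for AGATAA and TGATAA, letters bound by GATA factors; the pair have GATAA in common and cannot both match at 1 place. Mcpt4 holds TGATAA starting 103 bases before its start and Mcpt1 holds it 99 bases before. The promoter table matched 8 of the 10 genes (Tpsb2 and Mcpt2 were not matched), and 6 of those 8 held a match, against 18.6% of all 32851 promoter windows of that length (6115 windows). Cma1 and S100a8 held none of these letters in the window. Cpa3 holds AGATAA starting 46 bases before its start, shown in capitals in 80 bases at chr3:20242178-20242257, minus strand:
Cpa3: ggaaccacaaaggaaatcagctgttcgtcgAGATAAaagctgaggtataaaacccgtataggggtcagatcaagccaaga

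Connective-tissue proteases were present in both pups at low levels. Tpsb2 (ENSMUSG00000033825.9, chr17:25366305-25369098, plus strand), which encodes the tryptase mMCP-6, stood at 5.38 TPM in pup 1 and 6.28 TPM in pup 2, from 190 and 170 reads, or 5.83 ± 0.636 TPM (SD, n = 2). Cma1 (ENSMUSG00000022225.6, chr14:55941451-55944675, minus strand), which encodes the chymase mMCP-5, stood at 4.65 and 5.14 TPM from 163 and 138 reads (4.90 ± 0.346 TPM). These were the highest of the 10 genes by mean TPM, at ranks 8860 and 9376 of 21474 protein-coding genes. Cpa3 (ENSMUSG00000001865.2, chr3:20215620-20242181, minus strand), the carboxypeptidase that trims peptides after chymase, stood at 4.13 and 3.06 TPM from 188 and 114 reads (3.60 ± 0.757 TPM). Mcpt4 (ENSMUSG00000061068.6, chr14:56059629-56062313, minus strand), which encodes the chymase mMCP-4, stood at 1.72 and 1.79 TPM from 55 and 44 reads (1.76 ± 0.0495 TPM). The microRNA gene Mir7007 lies within Cpa3 on the same strand, and the other genes of the set overlap no annotated gene.

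The 4 connective-tissue proteases summed to 15.88 and 16.27 TPM, and their summed reads differed between the pups by less than counting error (ratio of pup 2 to pup 1 0.982, 95% interval 0.868 to 1.11). Intervals here are exact (Clopper-Pearson). They treat each read as an independent count and cover counting error alone. Without molecular identifiers several reads can stem from 1 molecule, and the intervals are too narrow where that happened. Within each pup Cma1 exceeded Mcpt4, by 2.61-fold and 2.77-fold in TPM + 0.1 (log2 1.43 ± 0.062, n = 2). The log2 ratio of Tpsb2 to Cma1 was 0.25 ± 0.055, and in each pup the counting interval of their ratio per length included 1 (0.934 to 1.44 and 0.971 to 1.54). Tpsb2 exceeded Cpa3 by 1.30-fold in pup 1 (1.06 to 1.60) and by 2.05-fold in pup 2 (1.61 to 2.62). In this bulk tissue, fewer cells of a type and less RNA per cell cannot be told apart. With 2 values of 1 group no test between conditions exists, and an exact sign-flip test could not reach a p under 0.05.

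**Figure D1:**
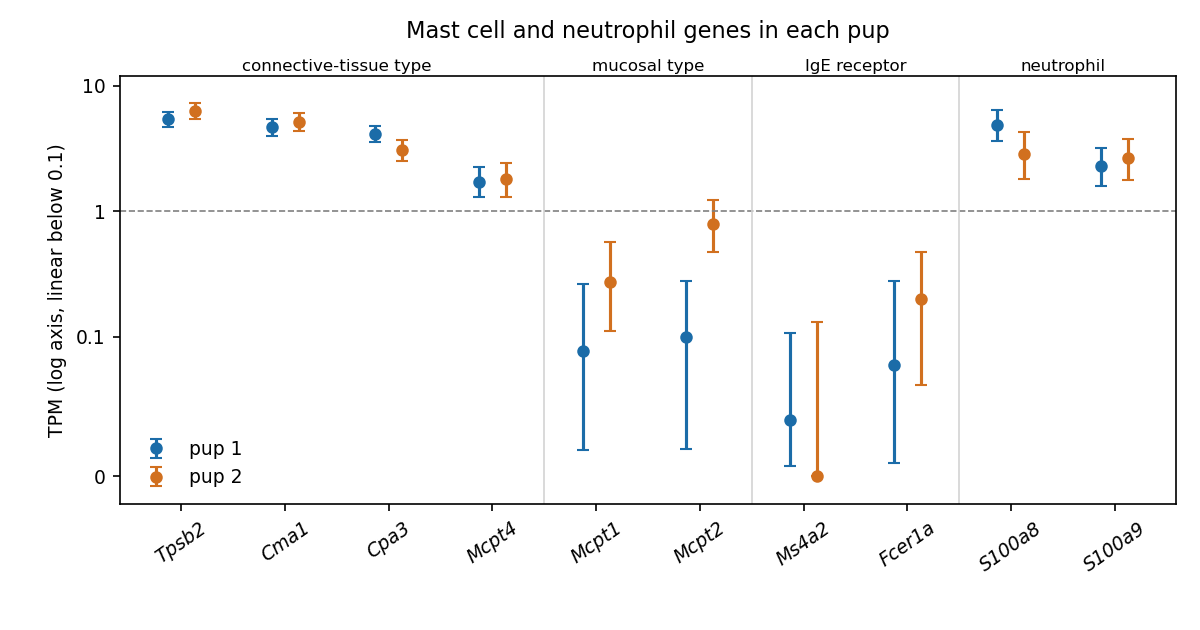
TPM of the 10 genes in pup 1 and pup 2 (points; log axis, linear below 0.1), with bars giving the exact Poisson 95% interval of the read count and a dashed line at 1 TPM. The 4 connective-tissue proteases and both S100 genes lie above 1 TPM in both pups, and the mucosal proteases and IgE receptor chains lie below it.

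Mucosal proteases were far scarcer, with 6 reads in pup 1 and 26 in pup 2 over both genes. Mcpt1 (ENSMUSG00000022227.4, chr14:56017971-56020384, plus strand), the chymase mMCP-1 shed into blood during worm expulsion, was at 0.09 and 0.27 TPM from 3 and 7 reads. Mcpt2 (ENSMUSG00000022226.5, chr14:56042041-56044642, plus strand), which encodes mMCP-2, was at 0.10 and 0.79 TPM from 3 and 19 reads. In pup 1 neither gene had more than 3 reads, and of the pair only Mcpt2 passed the between-pup comparison given further on. The summed connective-tissue proteases exceeded the summed mucosal ones by 55.1-fold in pup 1 and by 14.1-fold in pup 2, on the scale of TPM + 0.1 (log2 5.78 and 3.82, mean 4.80 ± 1.39). That mean was 3.45 with a pseudocount of 1 TPM, 3.67 with medians over members and 4.44 without Cpa3, so the direction held and the size depended on the scale. In pup 1 Mcpt4 exceeded Mcpt1 per length by 19.1-fold (6.21 to 95.5) and Mcpt2 by 17.9-fold (5.83 to 89.7). In pup 2 the same ratios were 6.55 (2.93 to 17.2) and 2.27 (1.30 to 4.11). Mcpt2 exceeded Mcpt1 by 2.89-fold in pup 2 (1.16 to 8.14), and in pup 1 no ratio of the pair is given because both had 3 reads.

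Mcpt2 was the only gene of the set over 2-fold apart between the littermates. After scaling for library size its count in pup 2 was 7.96 times that in pup 1, with an interval from 2.34 to 42, from 3 and 19 reads. A gene was called over 2-fold apart where this interval was entirely over 2 or entirely under 0.5 and the pups' reads added up to at least 10, and 8 of the 10 genes had that many reads. The call was made for 1 of these 8, against 0.796% of all 19088 genes tested. Among the 3385 genes with a summed count of 10 to 49 it was made for 2.57%. Of the 8, only Mcpt1 and Mcpt2 fall in that range. The ratio for Mcpt1 was 2.93 (0.669 to 17.6), an interval that includes 1. Mucosal genes gave 6 of 602 mast cell protease reads in pup 1, 0.997% (exact binomial 95% interval 0.367 to 2.16). In pup 2 they gave 26 of 492, 5.28% (3.48 to 7.65), and the intervals did not overlap. This share was added after the data were seen. It counts the same Mcpt2 reads, 19 of the 26 in pup 2, so it is not separate support for the Mcpt2 difference. The comparison is between 2 libraries and not between conditions.

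Other genes also differed between the pups. All 4 adult globin genes were higher in pup 2 and summed to 1707 TPM in pup 1 and 2569 TPM in pup 2. Hoxa10, a homeobox gene of the posterior gut that was chosen after its values were seen, had 377 reads in pup 1 and 6 in pup 2, a 50-fold difference (22.8 to 137). Their part in the Mcpt2 difference was not tested. The ratio of pup 2 to pup 1 was 1.12 for Tpsb2 (0.909 to 1.39), 1.06 for Cma1 (0.842 to 1.34) and 1.01 for Mcpt4 (0.660 to 1.52), and each of these intervals includes 1. The ratio of Cpa3 was 0.762 (0.598 to 0.967), lower in pup 2 beyond counting error but not over 2-fold.

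**Figure D2:**
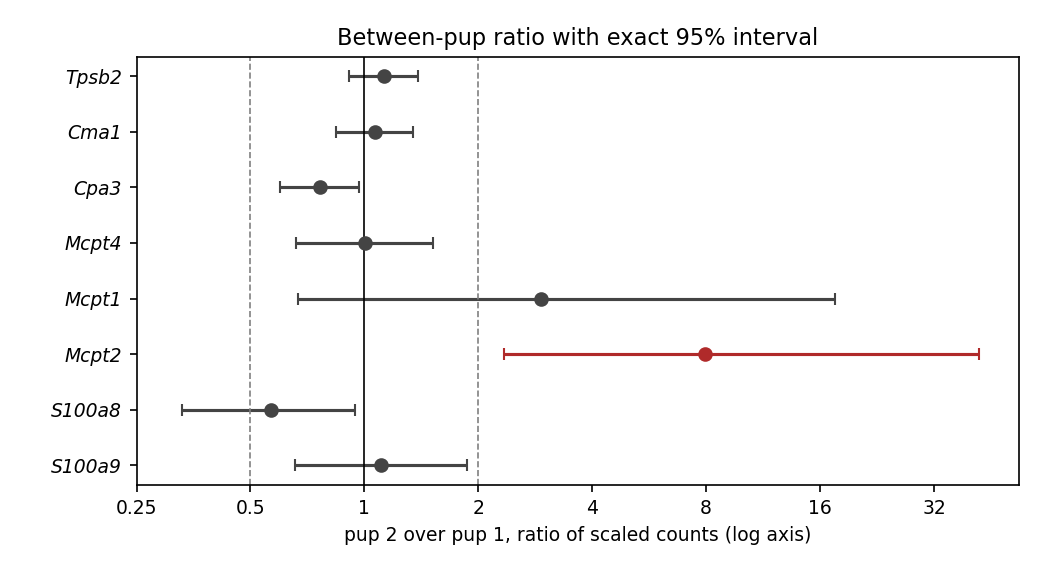
Ratio of pup 2 to pup 1 in scaled read counts (log axis) for the 8 genes with a summed count of 10 or more, with exact 95% intervals, a solid line at 1 and dashed lines at 0.5 and 2. The interval of Mcpt2 (red) lies wholly above 2, and no other interval lies outside the dashed lines.

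Chymases, cathepsin G and granzymes lie side by side on chromosome 14. Against 59.1% of all protein-coding genes, 2 of the 15 genes listed from that locus reached 1 TPM in each pup, Cma1 and Mcpt4. These lie at opposite ends of the chymase group, with 120.862 kb from the start of Cma1 to the end of Mcpt4. Between them lie Cma2 (0 and 1 read), Mcpt1, Mcpt9 (no read) and Mcpt2. Beyond Mcpt4, the basophil protease gene Mcpt8 had 1 read in each pup and Ctsg, the neutrophil cathepsin G gene, had 1 and 0. No read of 6 of the 15 genes was found in either pup, and 1 of the 5 with enough reads, Mcpt2, was over 2-fold apart. Over all genes tested that share was 0.796%, and it was 2.57% at summed counts of 10 to 49. From Cma1 to Mcpt4 the levels ran 4.65, 0, 0.09, 0, 0.10 and 1.72 TPM in pup 1. In pup 2 they ran 5.14, 0.04, 0.27, 0, 0.79 and 1.79 TPM. In both pups the genes at the ends stood above those between, and in pup 2 Mcpt4 was 2.27-fold over Mcpt2.

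**Figure D3:**
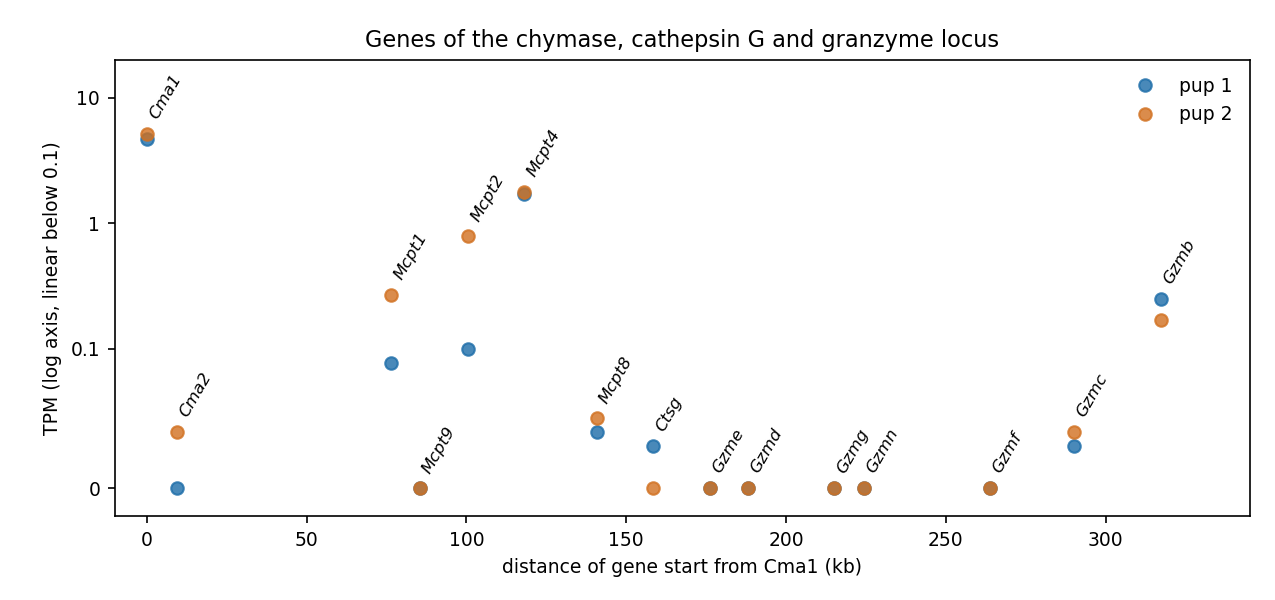
TPM (log axis, linear below 0.1) of the 15 genes of the chymase, cathepsin G and granzyme locus in pup 1 and pup 2, against the distance of each gene's start from that of Cma1 in kb. Cma1 and Mcpt4 stand above 1 TPM in both pups, Mcpt2 stands at 0.10 and 0.79 TPM, and the granzyme genes lie at or below 0.25 TPM.

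The IgE receptor chains were at the limit of detection. Fcer1a (ENSMUSG00000005339.6, chr1:173221284-173227214, minus strand), the alpha chain that binds IgE, had 2 and 5 reads, or 0.08 and 0.20 TPM. Ms4a2 (ENSMUSG00000024680.8, chr19:11615523-11623719, minus strand), the beta chain that amplifies the signal, had 3 reads in pup 1 (0.04 TPM) and 0 in pup 2, where a count of 0 allows up to 0.105 TPM at 3 counts. The reads of Fcer1a fell on different transcripts in the pups, and the 3 reads of Ms4a2 fell on its longest annotated transcript, of 2391 bases. Per length, Cpa3 exceeded Fcer1a by 53.9-fold (14.7 to 449) in pup 1 and by 15.2-fold (6.32 to 47.7) in pup 2. It exceeded Ms4a2 by 113-fold in pup 1 (38.2 to 555). In pup 2, where Ms4a2 had no read, Cpa3 was 29.1-fold over the value of 3 counts, a figure without a counting interval. The effective length of Ms4a2 was 2292 bases in pup 1 and 1033.2 in pup 2, so the 113-fold and 29.1-fold figures rest on unlike lengths. Fcer1g, the signalling gamma chain, which macrophages and other myeloid cells also carry, was at 38.31 and 43.36 TPM, and exceeded Cpa3 by 9.29-fold (7.91 to 10.9) and 14.1-fold (11.6 to 17.4). All 7 macrophage genes listed reached 1 TPM in each pup, against 59.1% of all protein-coding genes. These 7 genes summed to 231.62 and 227.7 TPM. Whether the gamma chain reads came from mast cells was not tested.

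Among 19 further mast cell genes, 11 reached 1 TPM in each pup, 2 had no read (Mrgprb1 and Mcpt9) and none was over 2-fold apart among the 15 tested. The share of the 10 followed genes at that level, 6 of 10, was near that of all protein-coding genes, 59.1% (12691 of 21474). The highest of the mast cell list were Cd63, a granule membrane protein found in many cells (899 and 896 TPM), Fcer1g, the leukotriene synthase Ltc4s (31.24 and 42.94 TPM), the prostaglandin D synthase Hpgds (31.11 and 34.44 TPM), serglycin (Srgn, 17.30 and 15.08 TPM) and Cnrip1 (9.77 and 9.96 TPM). Most of these are carried by other cells too. The rest of the 11 were Il1rl1 (6.88 and 8.18 TPM), Ndst2 (5.84 and 6.92 TPM), Slc18a2 (2.59 and 3.44 TPM), Gata2 (1.45 and 1.51 TPM) and Kit, given below. The following genes of the list, all under 1 TPM in both pups, were chosen after their values were seen. Tpsab1, the tryptase gene next to Tpsb2 on chromosome 17, had 4 and 6 reads (0.09 and 0.16 TPM), and Tpsb2 exceeded it per length by 60.7-fold (23.3 to 225) and 40.3-fold (18.1 to 111). In C57BL/6 mice a splice-site change in Tpsab1 is known to prevent production of its tryptase, mMCP-7. The coding sequences of this pair were 67.8% identical, and no 100-base window of Tpsb2 occurs in another gene. Mrgprb2, the receptor for basic secretagogues on connective-tissue mast cells, had 8 reads in each pup, and Hdc, which makes histamine, stood at 0.95 and 0.73 TPM.

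Kit, the stem cell factor receptor of mast cells, was at 4.73 and 4.60 TPM, and it is also the defining receptor of the interstitial cells of Cajal, the pacemakers of the gut wall. The Cajal genes Ano1 (7.11 and 7.34 TPM) and Etv1 (14.08 and 14.26 TPM) both passed 1 TPM, and the share of Kit reads from either cell was not tested. Of 7 growth factor genes listed, 3 reached 1 TPM in each pup. These were Kitl, the stem cell factor (12.34 and 12.80 TPM), Itgb6 (8.58 and 9.34 TPM), the integrin chain that activates TGF-β in epithelium, and Tgfb1 (1.29 and 1.35 TPM), the factor known to induce Mcpt1 in mucosal mast cells. Il3 and Il9, the T cell factors that expand mucosal mast cells, had no read in either pup, and neither did the receptor gene Il9r. The receptor genes Il4ra (20.04 and 21.38 TPM) and Il3ra (4.96 and 4.43 TPM) were present. Only 3 of the 7 growth factor genes and 2 of the 3 receptor genes had enough reads to be compared between the pups, and none of these was over 2-fold apart.

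Basophil and eosinophil genes were scarce. Of 5 basophil genes only Il3ra, which other cells carry too, reached 1 TPM in both pups, and the other 4 were under 0.5 TPM in both. None of 9 eosinophil genes reached 1 TPM, their sums were 0.65 and 0.80 TPM, and Prg3 and Ear6 had no read.

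**Figure D4:**
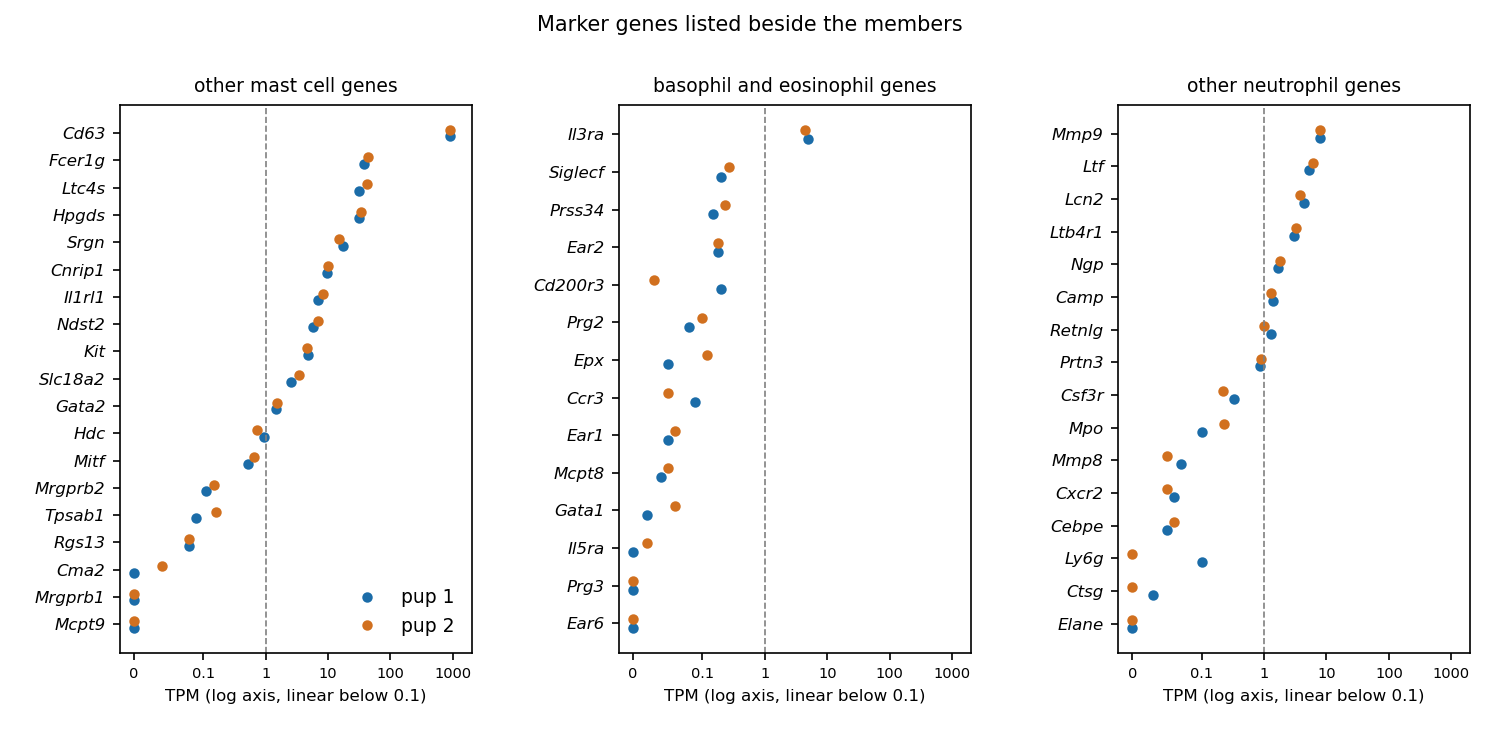
TPM (log axis, linear below 0.1) in pup 1 and pup 2 of other mast cell genes, basophil and eosinophil genes and other neutrophil genes, with a dashed line at 1 TPM. Of these, 11 of 19 mast cell genes, 1 of 14 basophil and eosinophil genes and 7 of 16 neutrophil genes lie at or above the line in both pups.

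Both calprotectin chains were present at low levels in both pups. S100a8 (ENSMUSG00000056054.8, chr3:90668978-90670035, plus strand) stood at 4.84 TPM in pup 1 and 2.85 TPM in pup 2, from 51 and 23 reads (3.85 ± 1.41 TPM, n = 2). S100a9 (ENSMUSG00000056071.8, chr3:90692632-90695721, minus strand), 22.597 kb away, stood at 2.28 and 2.64 TPM from 34 and 30 reads (2.46 ± 0.255 TPM). S100a8 was 1.76-fold higher in pup 1 (1.06 to 3.03), which passed counting error and missed the 2-fold rule, while the ratio of S100a9 in pup 2 to pup 1 was 1.11 (0.655 to 1.87). The proteins pair in calprotectin. In pup 1 S100a8 exceeded S100a9 per length by 2.13-fold (1.35 to 3.38), and in pup 2 by 1.08-fold (0.599 to 1.92). The interval excludes 1 in pup 1 and includes it in pup 2, the intervals overlap, and the difference between the pups in this ratio was not tested. Their log2 ratio in TPM + 0.1 was 0.58 ± 0.67, smaller than its spread. In pup 1 30.06% of S100a9 abundance was assigned to a second transcript and in pup 2 none was.

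The S100 pair summed to 7.12 and 5.49 TPM, which was 2.21-fold and 2.93-fold lower than the connective-tissue proteases in TPM + 0.1 (log2 -1.35 ± 0.29). As CPM (counts scaled to library size, not to length), that log2 ratio was -2.90, the main S100 transcripts being 392 and 512 bases long, and with medians over members it was -0.45. By mean TPM the 10 genes ran Tpsb2, Cma1, S100a8, Cpa3, S100a9, Mcpt4, Mcpt2, Mcpt1, Fcer1a and Ms4a2. The values of S100a8 in the 2 pups spanned both values of Cpa3 and overlapped those of Cma1, so S100a8 could not be ranked against these neighbours.

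Neutrophil genes were present in part. Of 16 listed, 7 reached 1 TPM in each pup, against 59.1% of all protein-coding genes. None was over 2-fold apart among the 11 tested, against 0.796% of all genes tested. The highest were the gelatinase Mmp9 (7.76 and 7.93 TPM), lactoferrin (Ltf, 5.21 and 6.11 TPM), lipocalin 2 (Lcn2, 4.34 and 3.82 TPM), the leukotriene receptor Ltb4r1 (3.03 and 3.25 TPM), neutrophilic granule protein (Ngp, 1.65 and 1.78 TPM) and cathelicidin (Camp, 1.39 and 1.31 TPM). Ltf, Lcn2 and Mmp9, among others, are made by other cells as well. Whether the reads of the 7 genes came from neutrophils was not tested. Elane, the neutrophil elastase gene, had no read in either pup. Other genes of the list, chosen after their values were seen, were the myeloperoxidase gene Mpo (0.10 and 0.23 TPM), the proteinase 3 gene Prtn3 (0.87 and 0.88 TPM) and the collagenase gene Mmp8 (0.07 and 0.05 TPM). Ly6g, the surface marker of mature mouse neutrophils, had 3 and 0 reads. Per length, S100a9 and Ngp differed by less than counting error in both pups (1.38, 0.880 to 2.12, and 1.48, 0.912 to 2.36). None of 4 genes for neutrophil attractants and growth factors (Csf3, Cxcl1, Cxcl2 and Cxcl5) reached 1 TPM, with sums of 1.53 and 1.96 TPM.

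Stratified epithelium and monocytes can also hold S100a8 and S100a9. Of 8 genes of stratified epithelium only Krt14 reached 1 TPM in both pups (8.13 and 7.26 TPM), 6 were under 0.5 TPM in both, and the list summed to 9.67 and 8.70 TPM. Of 6 monocyte genes 3 reached 1 TPM in both pups. These were F13a1 (1.25 and 2.01 TPM) and, expressed by gut epithelium and macrophages too, Plac8 (1226 and 1218 TPM) and Lyz2 (40.08 and 36.67 TPM). Below that level were Ccr2 (0.94 and 0.70 TPM), Ly6c2 (0.76 and 0.48 TPM) and Chil3 (0.08 and 0.05 TPM). The part of these cells in the S100 reads was not tested.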

How the data were processed

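The authors deposited 1 gene and 1 transcript table per library, on mm10 with GENCODE M4 per the text file deposited with them. Per the file headers the tables give expected counts (estimated read counts), TPM, FPKM and, for transcripts, the percent of the gene. The deposited interval bounds of TPM, handled as a signal, were not used. Aligner, quantifier and strand use: not given in the sources used here. GENCODE M21 (GRCm38) supplied names and positions.

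Counts were rounded and scaled by TMM effective library sizes (edgeR 4.0.16, on genes with 10 or more counts). Exact 95% intervals of between-pup ratios of single genes came from R 4.3.3, and the other exact intervals from SciPy 1.17.1. Log2 ratios within a pup, and folds given as on that scale, used TPM + 0.1. Ratios per length divided counts by effective length, with no pseudocount. Alignments used Biopython 1.88 and plots matplotlib 3.10.9. Counts were also simulated with Poisson counting error alone (19137 genes tested). There the 2-fold rule called 1 of 50 genes changed 1.5-fold, 32 of 50 at 3-fold, 43 of 50 at 6-fold and 49 of 50 at 12-fold. It called 1 of 18942 unchanged genes. The simulation held no variation between animals or libraries, so it cannot give the rate of such calls in the real pups, where 0.796% of genes tested were called.

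Genes and lists were chosen with earlier results of these data known. Named were all 10 genes and, of each companion list, up to 6 of those reaching 1 TPM in each pup and defining genes with no read. Other names were chosen after their values were seen. In every list, counts of genes at 1 TPM in both pups stand beside 59.1% of all protein-coding genes. Counts of genes over 2-fold apart stand beside 0.796% of all genes tested. Likeness of pattern across conditions cannot be computed from 1 group. Alternatives were other scalings, thresholds, pseudocounts, posterior mean estimates and leaving out a pup.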

Additional observations from a re-analysis of the deposited data

How the results depend on the processing

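The number of the 10 genes at 1 TPM or more stayed at 6, and the number over 2-fold apart stayed at 1, under every alternative tried for them. The log2 ratio of the S100 pair to the connective-tissue proteases moved from -1.35 to -2.90 in CPM and to -0.45 with medians over members. The log2 ratio of Cma1 to Mcpt4 moved from 1.43 to 1.10 with a pseudocount of 1 TPM and to 1.53 in CPM, and kept its direction. The between-pup log2 ratio of Mcpt4, 0.0075, became -0.0023 with DESeq2 size factors (DESeq2 1.42.0) and -0.0032 with TMM over all genes, all far inside counting error. The other 30 of 32 between-pup values kept their direction and their side of the threshold. The share of mucosal reads, a measure added after seeing the data, moved by less than its interval when taken in TPM, from posterior mean counts or without Cpa3.

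The ratios of Fcer1a to Ms4a2 and of Mcpt1 to Mcpt2 were not computed over both pups, since in pup 1 both genes of each pair had 3 reads or fewer. No paired analysis was possible because both libraries belong to 1 group. At this depth 1 read on 1 kb is worth 0.0278 and 0.0363 TPM, so the mucosal and IgE receptor genes rest on 0 to 19 reads each. Mcpt1 was tested and no difference between the pups was detected, and Fcer1a and Ms4a2 had too few reads to be tested.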

Other observations

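Among the genes listed with the tryptases on chromosome 17, Prss32 and Tpsg1 stood above Tpsb2 in TPM in both pups. Prss30 stood above Tpsb2 in pup 1 and below it in pup 2. Prss32 and Prss30 start at bases 23843855 and 23972126, at a distance from Tpsb2, which starts at 25366305. Of 8 genes listed there, 4 reached 1 TPM in each pup, against 59.1% of all protein-coding genes. Beside Tpsb2 these were Prss32 (16.87 and 11.70 TPM), Tpsg1 (10.74 and 8.85 TPM) and Prss30 (9.59 and 3.73 TPM). Prss28 and Prss29 had no read. Prss30 was lower in pup 2 (ratio of pup 2 to pup 1 0.428, 95% interval 0.350 to 0.521), beyond counting error and short of the 2-fold rule. Of 5 protease inhibitor genes listed, 4 reached 1 TPM in each pup, against 59.1% of all protein-coding genes. Serpinb1a, which blocks neutrophil elastase and chymases, was the highest (457 and 401 TPM). Next came Slpi, the secretory leukocyte inhibitor (67.10 and 77.29 TPM), and Serping1, the C1 inhibitor (39.56 and 40.61 TPM). Of 7 measured genes for other S100 proteins and calprotectin receptors, 6 reached 1 TPM in both pups, against 59.1% of all protein-coding genes. S100a1 (876 and 891 TPM), S100a11 (775 and 877 TPM), S100a10 (712 and 588 TPM) and S100a6 (201 and 180 TPM) stood above S100a8 and S100a9.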
